A study of Mus musculus with 60 samples.

Results

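The genes described here are 8 genes of cholesterol synthesis and its control by sterol regulatory element-binding proteins (SREBPs): Hmgcs1, Idi1, Fdft1, Sqle, Cyp51, Dhcr7, Insig1 and Srebf2. They were chosen by name, as the rows of the deposited table whose Ensembl identifier maps to one of these symbols, and all 8 were found among 18088 genes. All 8 also passed the filter on low values that left 17781 genes for testing. RNA was sequenced from the prefrontal cortex of 60 C57BL/6J mice at postnatal day 25. The mice carried the K228E allele of Tbr1 in the heterozygous state (HT) or were wild type (WT), and Tbr1 encodes a transcription factor that deep-layer neurons of the cortex need for their identity. Pups of both genotypes and sexes received fluoxetine, lithium or vehicle in their mother's milk from day 3 to day 24, so the dose that reached each pup is not given by the labels. Genotype, treatment and sex make 12 groups of 5 libraries: HT and WT mice, male and female, on fluoxetine, on lithium or on vehicle. Every HT mouse carries 1 mutant and 1 normal allele in all its cells. Litters, dams and batches are not labelled, and pups of 1 litter share a mother's milk, so a p-value here reflects the spread among these samples alone, which may in part be technical.

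Cells make cholesterol from acetyl-CoA through mevalonate, isoprenoid units, squalene and lanosterol. When sterol in the endoplasmic reticulum is low, SREBP-2 (encoded by Srebf2) travels with its escort SCAP to the Golgi, is cut there, and switches on the genes of the pathway. Insig proteins hold it back when sterol is plentiful. The brain makes its own cholesterol, since lipoproteins of the blood do not cross the blood-brain barrier, and myelinating oligodendrocytes need much of it in the first postnatal weeks. Fluoxetine, a serotonin reuptake inhibitor, is a cationic amphiphilic drug, a class that gathers in lysosomes and can hold up cholesterol there. Lithium is a mood stabiliser that is not of this class.

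Libraries held 23930164 to 36515331 reads (median 28721151), and values are reads divided by a size factor of 0.818 to 1.33 for each library. All 8 markers of cortical projection neurons were read in every library, with Tbr1 at 845 to 5241. Tbr1 RNA does not check the genotype label, since the labelled allele is not a deletion. Markers of the olfactory bulb, which adjoins the prefrontal cortex, varied widely, and the 10 libraries of vehicle males stood apart from the other 50. Both facts touch the sterol genes and are given beside the results. In bulk tissue, fewer cells of a type and less RNA per cell cannot be told apart.

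Promoter sequences are shown for 4 of the genes because they differ in how they moved and in what a search of their promoters found. Each runs from 250 bases before to 50 bases after the annotated start, from RefSeq on GRCm38.p6. Capitals mark matches, on either strand, to a sterol regulatory element (TCACNCCAC) or a CCAAT box (CCAAT), while matches to a GC box (GGGCGG) were counted and left in lower case. Hmgcs1 lies at chr13:119690101-119690400 on the plus strand, Idi1 at chr13:8885356-8885655 on the plus strand, Cyp51 at chr5:4104648-4104947 on the minus strand and Srebf2 at chr15:82147019-82147318 on the plus strand.
Hmgcs1: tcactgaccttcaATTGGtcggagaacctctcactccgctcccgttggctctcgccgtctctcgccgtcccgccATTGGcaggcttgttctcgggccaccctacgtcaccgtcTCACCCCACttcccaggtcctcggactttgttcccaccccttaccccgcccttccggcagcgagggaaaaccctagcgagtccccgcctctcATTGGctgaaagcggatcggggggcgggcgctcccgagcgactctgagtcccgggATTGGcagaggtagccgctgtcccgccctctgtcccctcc
Idi1: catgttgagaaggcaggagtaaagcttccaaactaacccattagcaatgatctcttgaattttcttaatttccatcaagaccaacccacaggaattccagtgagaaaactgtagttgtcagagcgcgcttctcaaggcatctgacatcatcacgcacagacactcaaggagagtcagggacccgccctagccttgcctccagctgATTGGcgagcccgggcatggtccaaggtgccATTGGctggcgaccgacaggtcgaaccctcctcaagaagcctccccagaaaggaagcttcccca
Cyp51: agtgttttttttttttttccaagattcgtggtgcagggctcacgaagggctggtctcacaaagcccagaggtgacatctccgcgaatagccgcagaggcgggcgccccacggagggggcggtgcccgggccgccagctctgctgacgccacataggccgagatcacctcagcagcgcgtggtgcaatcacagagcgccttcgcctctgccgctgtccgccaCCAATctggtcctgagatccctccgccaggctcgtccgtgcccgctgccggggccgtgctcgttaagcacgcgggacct
Srebf2: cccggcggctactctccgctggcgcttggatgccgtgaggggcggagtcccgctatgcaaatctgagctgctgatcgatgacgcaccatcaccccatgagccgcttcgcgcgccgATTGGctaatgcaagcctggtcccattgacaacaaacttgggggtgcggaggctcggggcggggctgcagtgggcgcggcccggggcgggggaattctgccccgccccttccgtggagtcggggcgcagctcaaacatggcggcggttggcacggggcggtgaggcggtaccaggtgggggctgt

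RefSeq's table had promoters for 6 of the 8 genes, in 8 entries, and none for Sqle or Fdft1. Of the 6, Hmgcs1 was the one with a match to TCACNCCAC, with its first base at position -137 from the start, and with 4 matches to CCAAT. That element was found in 408 of 32851 promoters of the same length (1.24%), CCAAT in 37.4% and GGGCGG in 35.7%. Idi1 held 2 CCAAT matches, Cyp51, Insig1 and Srebf2 held 1 each, and of the 3 entries of Dhcr7 1 held 2 and the others 0. GGGCGG matched 5 times in Srebf2, 3 times each in Hmgcs1 and Insig1 and 1 time each in Cyp51 and Idi1, and 1, 0 and 3 times in the entries of Dhcr7. A match is only a run of letters, and its absence from this window says nothing about the factor.

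The genes lie on 5 chromosomes of GRCm38. Hmgcs1 (ENSMUSG00000093930, chr13:119690379-119708260, plus strand) encodes HMG-CoA synthase, which makes the precursor of mevalonate. Idi1 (ENSMUSG00000058258, chr13:8885501-8892451, plus strand) encodes the isomerase that interconverts the isoprenoid building blocks. Fdft1 (ENSMUSG00000021273, chr14:63145150-63179578, minus strand) encodes squalene synthase and overlaps Ctsb on the opposite strand. Sqle (ENSMUSG00000022351, chr15:59315077-59331192, plus strand) encodes squalene epoxidase, which acts on squalene. Cyp51 (ENSMUSG00000001467, chr5:4081145-4104746, minus strand) encodes lanosterol demethylase and overlaps Akap9 on the opposite strand. Dhcr7 (ENSMUSG00000058454, chr7:143823145-143848410, plus strand) encodes the reductase of the last step. Insig1 (ENSMUSG00000045294, chr5:28071363-28078662, plus strand) encodes the retention protein, itself an SREBP target. Srebf2 (ENSMUSG00000022463, chr15:82147181-82205379, plus strand) encodes SREBP-2. Hmgcs1 and Idi1 overlap Gm48342 and Gm48574, also on the opposite strand. The kit marks strand, but whether the counting used it is not given in the sources used here. Reads of Fdft1 and Ctsb, of Cyp51 and Akap9, and of Hmgcs1 and Idi1 where they overlap these genes are therefore uncertain.

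Per kb of exon, averaged over 60 libraries, Hmgcs1 had the highest level of the 8 at 1975 normalised reads, ahead of Srebf2 at 963. Insig1 (581), Fdft1 (524), Cyp51 (448), Idi1 (438) and Sqle (326) followed, and Dhcr7 was lowest at 184. The following values are normalised reads per gene, not scaled by length, so they compare libraries and not genes. Differences are log2 differences of value + 1 from limma, with all 60 libraries in the fit, and a gene is called where its Benjamini-Hochberg adjusted p over 17781 genes is below 0.05.

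In females, 1 of the sterol genes passed the test in 1 of the 4 drug comparisons. Of the 8 genes, 0 were called under fluoxetine in HT females, 0 under lithium in HT females and 0 under lithium in WT females, where 0%, 0.0169% and 0.00562% of all genes were called. In WT females on fluoxetine 1 of the 8 was called, Insig1, where 39.8% of all genes were. At an unadjusted p below 0.05, Idi1 counted in HT females on fluoxetine (4063 genes in all, 22.9%), Insig1 in WT females on lithium (2012, 11.3%), and 0 of the 8 in HT females on lithium (1690, 9.5%). edgeR and DESeq2 called 0 of the 8 in these 3 comparisons too. Of all genes, edgeR called 0 and DESeq2 388 for fluoxetine in HT females. For lithium edgeR called 1 and DESeq2 38 in WT females, and 3 and 7 in HT females. The median log2 difference of the 8 was -0.09 for fluoxetine in HT females, -0.06 for fluoxetine in WT females, -0.01 for lithium in HT females and 0.00 for lithium in WT females, and that of all genes was 0.01 each time.

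Insig1, whose protein retains SREBP-2, had 1592, 1463, 1657, 1717 and 1726 normalised reads in WT females on fluoxetine, 1458, 1993, 1481, 1848 and 1568 in WT females on lithium and 1746, 1675, 2037, 1972 and 2012 in WT females on vehicle. The fluoxetine and vehicle libraries overlap between 1675 and 1726, with most vehicle libraries above. The log2 difference was -0.21 ± 0.07 (SE; adjusted p = 0.0198) for fluoxetine and -0.18 ± 0.07 (SE; adjusted p = 0.372) for lithium. In HT females Insig1 had 1954, 1717, 1785, 1692 and 1716 on fluoxetine, 1873, 1637, 1843, 1791 and 1527 on lithium and 1738, 1671, 1967, 2023 and 2114 on vehicle, and the 3 groups overlap. The call in WT females was lost without replicate 2 of the fluoxetine group (adjusted p = 0.0722) or replicate 3 of the vehicle group (0.0726).

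That comparison also moved with the olfactory bulb list. All 7 bulb markers were lower in WT females on fluoxetine than on vehicle, with a median log2 difference of -5.15. Their summed level was 244 to 2058 in the fluoxetine libraries, against 6287 to 22899 in the vehicle libraries, with no marker at 0. With the bulb list as covariates, 0 of 17781 genes were called in this comparison, and Insig1 stood at -0.28 (adjusted p = 0.818). Bulb levels of the fluoxetine and vehicle libraries do not overlap here, so for any gene this fit cannot tell bulb level and fluoxetine apart. In HT females the summed bulb level was 161 to 1397 on fluoxetine and 364 to 23854 on vehicle, with a median difference of -3.22 and 0 of 7 markers called. Other lists moved in WT females too, with 6 neuron markers of 8 higher and 2 lower, 4 astrocyte markers of 8 lower, 4 microglia markers of 8 higher, 2 striatum markers of 8 and 2 choroid plexus markers of 6 lower, and 0 of 10 oligodendrocyte markers called. None of these markers was at 0 in any library.

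Idi1, the isoprenoid isomerase, had the lowest difference of the 6 enzymes in females on fluoxetine, without passing the test. HT females had 1419, 1258, 1369, 1448 and 1348 on fluoxetine, 1576, 1495, 1672, 1686 and 1402 on lithium and 1512, 1585, 1576, 1422 and 1778 on vehicle. WT females had 1254, 1210.5, 1229, 1235 and 1316 on fluoxetine, 1258, 1715, 1257, 1709 and 1324 on lithium and 1381, 1258, 1619.6, 1516 and 1352 on vehicle. Each fluoxetine group overlaps its vehicle group only at the low end of the vehicle values. The differences for fluoxetine, -0.20 ± 0.09 (SE; adjusted p = 0.188) in HT and -0.19 ± 0.09 (SE; adjusted p = 0.0784) in WT females, were not called. The WT value was called without replicate 2 of the vehicle females (-0.23, adjusted p = 0.0483), with quantile normalization (-0.20, 0.0467), with only the compared groups in the fit (-0.19, 0.0354) and with an oligodendrocyte covariate (-0.23, 0.0192).

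The other 6 genes of females overlapped between each drug and vehicle. Hmgcs1 had 8670.1 to 9413 on fluoxetine, 6997 to 10853 on lithium and 6387 to 10459 on vehicle in HT females, where the fluoxetine libraries spread least. In WT females Hmgcs1 had 8029.9 to 9185, 6771 to 11134 and 6794 to 9594 on fluoxetine, lithium and vehicle. Srebf2 had 7202 to 7866 on fluoxetine, 6189.6 to 7826 on lithium and 6673 to 8059.9 on vehicle in HT females. The levels of Srebf2 in WT females, 7117 to 7481 on fluoxetine, 6677 to 7952 on lithium and 6611 to 7762 on vehicle, overlap too. Cyp51, the demethylase, had 1765 to 2027, 1793 to 2245 and 1792 to 2256 in HT females on fluoxetine, lithium and vehicle, and 1713 to 1886, 1394 to 2137 and 1569 to 2113 in WT females. Its intervals for fluoxetine, -0.28 to 0.07 in HT and -0.25 to 0.10 in WT females, include 0. Over the 8 genes, 95% confidence intervals of the fluoxetine difference ran from -0.37 (Idi1) to 0.23 (Fdft1) in HT females and from -0.36 (Idi1) to 0.32 (Hmgcs1) in WT females. For lithium they ran from -0.28 (Insig1) to 0.27 (Hmgcs1) in HT females and from -0.33 (Insig1) to 0.30 (Hmgcs1) in WT females.

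**Figure D1:**
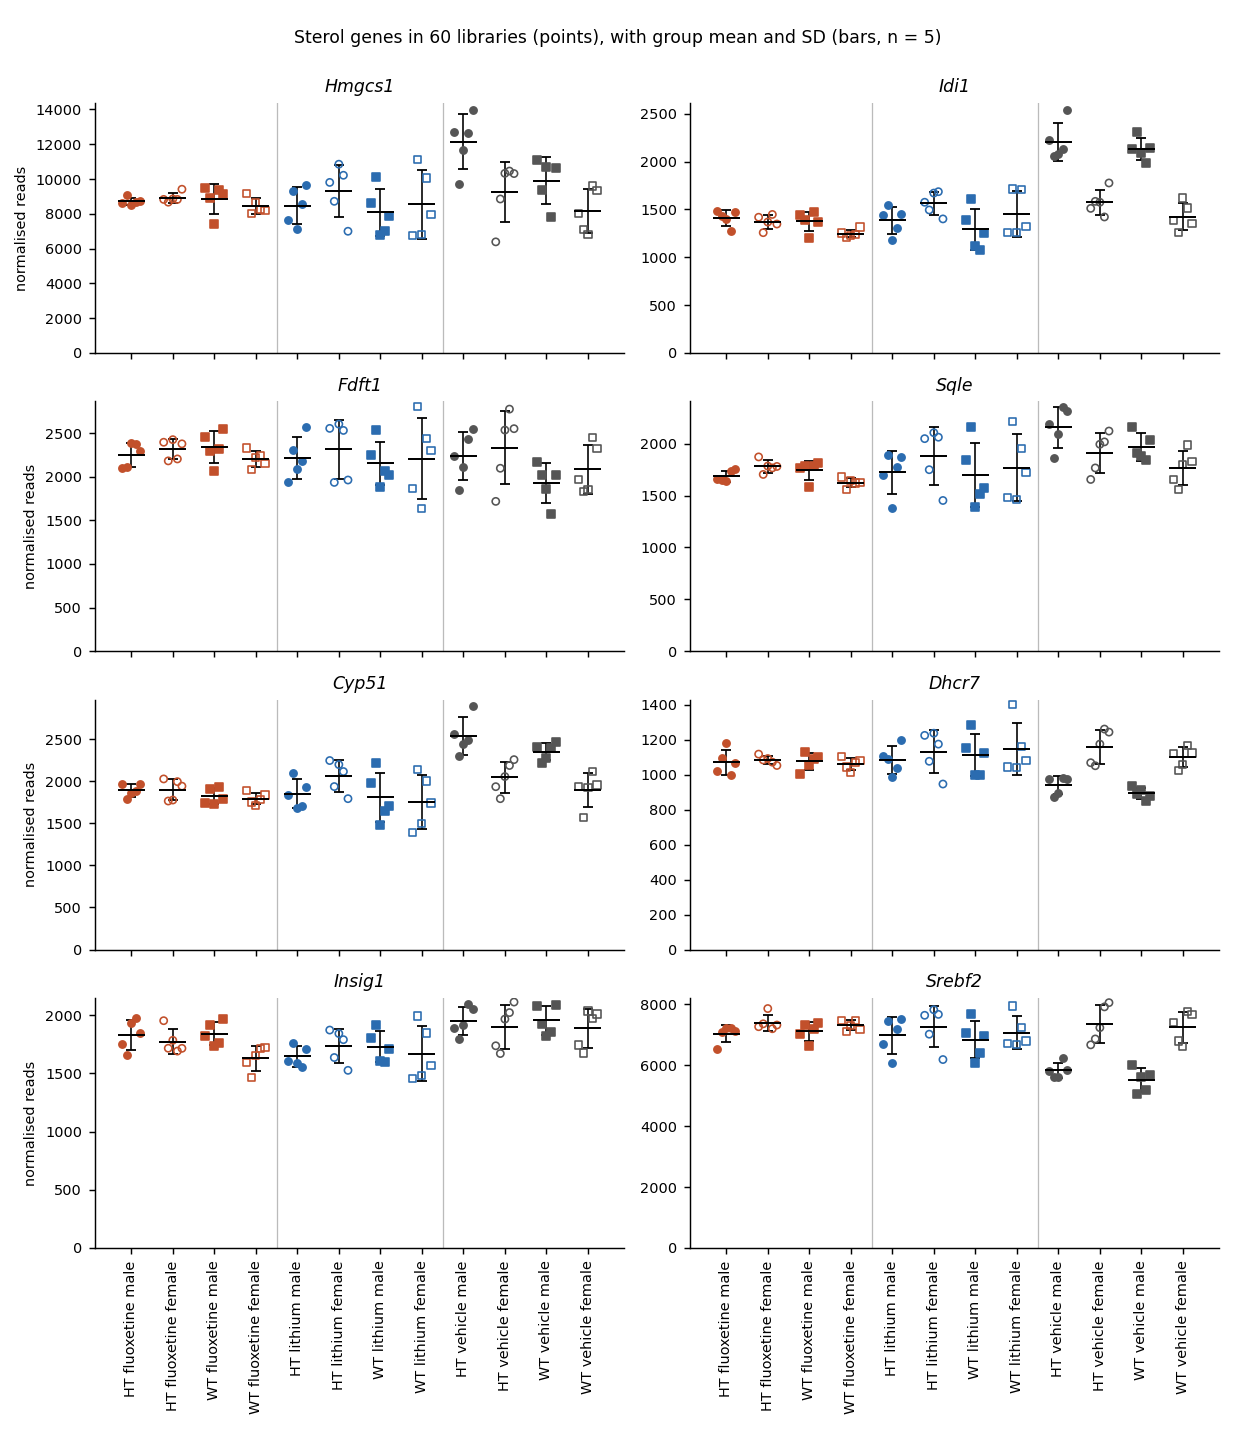
Normalised reads of the 8 sterol genes in each of 60 libraries, by treatment, genotype and sex, with 1 point per library and a bar at each group mean. Vehicle males sit above the other groups for Idi1, at 1985 to 2539 against 1078 to 1778, and low for Srebf2 and Dhcr7, while females on each drug overlap females on vehicle.

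In males, both drugs went with lower levels of the enzymes Idi1 and Cyp51 and higher levels of Dhcr7 and Srebf2, in both genotypes. Under fluoxetine 2 genes were higher and 4 lower in HT males, where 41.4% of all genes were called, and 3 were higher and 2 lower in WT males, where 58% were. Under lithium 2 were higher and 5 lower in HT males (36.9% of all genes) and 2 higher and 5 lower in WT males (48.2%). For fluoxetine in WT males, 5 of 8 is close to the background share, and the 6 or 7 of 8 of the other 3 comparisons are above it. For lithium in WT males the 7 fell to 4 with edgeR (48.3% of all genes) and with DESeq2 (48.4%), and to 4 without lithium replicate 3, 4 or 5 or vehicle replicate 1 or 5 (44.7% to 50% of all genes), close to the background share. The fluoxetine and lithium comparisons share the vehicle males of their genotype, so they are not independent of each other. The same 10 vehicle libraries also stand apart from the other males and from the females, so a drug difference in males and that shift cannot be told apart.

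Olfactory bulb markers moved with fluoxetine in WT males. Their summed level was 219 to 2381 on fluoxetine and 2602 to 9684 on lithium, against 5456 to 23729 on vehicle, in WT males, with 7 of 7 called lower for fluoxetine (median -3.68) and 0 of 7 for lithium (median -0.81). In HT males it was 257 to 3884 on fluoxetine and 96.6 to 15454 on lithium, against 2263 to 10949 on vehicle, with 0 of 7 called for either drug (medians -1.62 for fluoxetine and -0.37 for lithium). No marker was at 0 in any library. With bulb covariates Idi1, Cyp51, Dhcr7 and Srebf2 stayed called in all 4 male comparisons, with Idi1 at -0.62 and -0.61 for fluoxetine and -0.66 and -0.72 for lithium in HT and WT males.

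Idi1 had the largest difference of the 8 genes in each of the 4 male comparisons. HT males had 1484, 1431, 1403, 1271 and 1475 on fluoxetine and 1441, 1544, 1185, 1304 and 1456 on lithium, against 2232, 2055, 2081, 2133 and 2539 on vehicle. WT males had 1444, 1389.7, 1207, 1469 and 1371 on fluoxetine and 1388, 1615, 1119, 1078 and 1254 on lithium, against 2136, 2312, 2092, 1985 and 2139 on vehicle. Every drug-treated male lay below every vehicle male. The log2 difference was -0.64 ± 0.09 (SE; adjusted p = 2.55e-08) for fluoxetine and -0.67 ± 0.09 (SE; adjusted p = 1.08e-08) for lithium in HT males. It was -0.63 ± 0.09 (SE; adjusted p = 1.92e-08) for fluoxetine and -0.74 ± 0.09 (SE; adjusted p = 7.83e-10) for lithium in WT males.

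Hmgcs1, at the entry to the pathway, fell in HT males on both drugs. HT males had 8623, 9065, 8489.5, 8688 and 8715 on fluoxetine and 7634, 9323, 7144, 8540.5 and 9647 on lithium, against 12685, 9739, 11680.4, 12660.5 and 13986 on vehicle, and neither drug group overlapped vehicle. WT males had 9468, 8925, 7398, 9355 and 9145 on fluoxetine and 8643, 10104, 6769, 7007 and 7899 on lithium, against 11114, 9343, 10671, 7828 and 10613 on vehicle, and these groups overlap. Differences were -0.47 ± 0.13 (SE; adjusted p = 0.00232) for fluoxetine and -0.52 ± 0.13 (SE; adjusted p = 0.000844) for lithium in HT males, and -0.16 ± 0.13 (SE; adjusted p = 0.294) and -0.30 ± 0.13 (SE; adjusted p = 0.0483) for fluoxetine and lithium in WT males. With each library's trend on GC content and transcript length removed, both calls in HT males were lost, at -0.22 (adjusted p = 0.273) for fluoxetine and -0.29 (0.169) for lithium. The lithium call in WT males was lost with edgeR, with DESeq2, with the replicate number as a block (adjusted p = 0.052) and without any 1 of 7 libraries (lithium replicates 3, 4 and 5 and vehicle replicates 1, 2, 3 and 5, adjusted p = 0.0519 to 0.141).

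Of the squalene enzymes, Sqle was called lower in 3 male comparisons and Fdft1 higher in 1. Sqle had 1657, 1648, 1639, 1739 and 1752 on fluoxetine and 1699, 1890.1, 1381, 1777 and 1873 on lithium, against 2193, 1859.7, 2089.9, 2350.3 and 2314 on vehicle, in HT males. In WT males Sqle had 1762, 1786, 1586, 1788 and 1812 on fluoxetine and 1844, 2162, 1387, 1516 and 1574 on lithium, against 2164, 1909, 1878, 1839 and 2039.8 on vehicle. Every fluoxetine library lay below every vehicle library in both genotypes, and the lithium libraries overlapped vehicle. The difference was -0.35 ± 0.10 (SE; adjusted p = 0.00269) for fluoxetine and -0.33 ± 0.10 (SE; adjusted p = 0.00556) for lithium in HT males, and -0.17 ± 0.10 (SE; adjusted p = 0.13) and -0.23 ± 0.10 (SE; adjusted p = 0.048) in WT males. edgeR and DESeq2 did not call the lithium value in WT males, and it was lost without lithium replicate 3, 4 or 5 or vehicle replicate 1, 2 or 5 (adjusted p = 0.0562 to 0.188).

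Fdft1 had 2104, 2109, 2387, 2369.7 and 2292 on fluoxetine and 1936, 2310.1, 2083, 2175 and 2565 on lithium, against 2236, 1849, 2106, 2431 and 2548 on vehicle, in HT males, and the groups overlap. WT males had 2454, 2298, 2068, 2322 and 2552 on fluoxetine and 2254, 2533, 1883, 2068 and 2018 on lithium, against 2165, 2019, 1854, 1569.6 and 2022 on vehicle, with an overlap that is small under fluoxetine. It was called for fluoxetine in WT males, at 0.28 ± 0.11 (SE; adjusted p = 0.0279), and not for lithium there (0.16) or for either drug in HT males (0.02 for fluoxetine, -0.01 for lithium). That call was lost without fluoxetine replicate 1 or 5 or vehicle replicate 3 or 4 of the WT males (adjusted p = 0.0502 to 0.125) and with bulb or oligodendrocyte covariates.

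Cyp51, the first enzyme after lanosterol, fell in all 4 male comparisons. HT males had 1971, 1788, 1855, 1886 and 1967 on fluoxetine and 1836, 2098, 1678, 1702 and 1933 on lithium, against 2555, 2297, 2438, 2495 and 2893 on vehicle. WT males had 1745, 1910.2, 1725, 1937 and 1789 on fluoxetine and 1980.3, 2218, 1485, 1648 and 1702 on lithium, against 2405, 2217, 2275, 2393 and 2468 on vehicle. Only the lithium and vehicle groups of WT males overlap, by 1 library of each at 2217 to 2218. Differences were -0.42 ± 0.09 (SE; adjusted p = 0.000108) for fluoxetine and -0.46 ± 0.09 (SE; adjusted p = 3.42e-05) for lithium in HT males, and -0.37 ± 0.09 (SE; adjusted p = 0.000359) and -0.39 ± 0.09 (SE; adjusted p = 0.000204) in WT males.

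Dhcr7, at the end of the pathway, rose in the same comparisons. HT males had 1018, 1094, 1178, 998 and 1066 on fluoxetine and 1104, 1088, 987, 1038 and 1197 on lithium, against 974, 869, 894, 981 and 972 on vehicle. WT males had 1005, 1129, 1053, 1086 and 1101 on fluoxetine and 1151, 1282, 995, 997 and 1125 on lithium, against 933, 888, 912, 851 and 878 on vehicle. No drug group overlapped its vehicle group. The difference was 0.19 ± 0.07 (SE; adjusted p = 0.0203) for fluoxetine and 0.21 ± 0.07 (SE; adjusted p = 0.0129) for lithium in HT males, and 0.27 ± 0.07 (SE; adjusted p = 0.000705) and 0.31 ± 0.07 (SE; adjusted p = 0.000154) in WT males. In HT males the fluoxetine call was lost without fluoxetine replicate 3 or vehicle replicate 2 or 3 (adjusted p = 0.0508 to 0.0816), and the lithium call without lithium replicate 5 (0.0591).

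Of the regulators, Srebf2 rose and Insig1 fell under lithium. Srebf2 had 6529.6, 7107, 7222, 7214 and 7137 on fluoxetine and 6698, 7456, 6081, 7193 and 7531 on lithium, against 5821, 5623, 5623, 6252 and 5834 on vehicle, in HT males. In WT males Srebf2 had 7037, 7324, 6632, 7184 and 7386 on fluoxetine and 7066, 7673, 6089, 6419 and 6972 on lithium, against 6026, 5065, 5612, 5183 and 5666 on vehicle. Among these, only lithium and vehicle in HT males overlap, through 1 lithium library. Its difference was 0.27 ± 0.06 (SE; adjusted p = 0.000318) for fluoxetine and 0.26 ± 0.06 (SE; adjusted p = 0.000682) for lithium in HT males, and 0.37 ± 0.06 (SE; adjusted p = 1.60e-06) and 0.31 ± 0.06 (SE; adjusted p = 4.08e-05) in WT males. Insig1 had 1749, 1655, 1930.2, 1979 and 1845 on fluoxetine and 1611, 1763, 1589, 1555 and 1714 on lithium, against 1887, 1799.6, 1916, 2099.9 and 2052 on vehicle, in HT males, where the lithium group lay below vehicle. In WT males Insig1 had 1734 to 1966 on fluoxetine and 1601 to 1918 on lithium, against 1826 to 2093 on vehicle. Its difference was -0.24 ± 0.07 (SE; adjusted p = 0.00608) for lithium in HT males and -0.18 ± 0.07 (SE; adjusted p = 0.0385) for lithium in WT males, and -0.09 and -0.09, not called, for fluoxetine in HT and WT males. The lithium call in WT males was lost with edgeR and DESeq2 and without lithium replicate 3, 4 or 5 or vehicle replicate 1 or 5 (adjusted p = 0.0604 to 0.106). With each library's trend on GC content and transcript length removed, Srebf2 lost its calls under both drugs in males of both genotypes. Insig1 then lost its lithium calls in males of both genotypes.

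**Figure D2:**
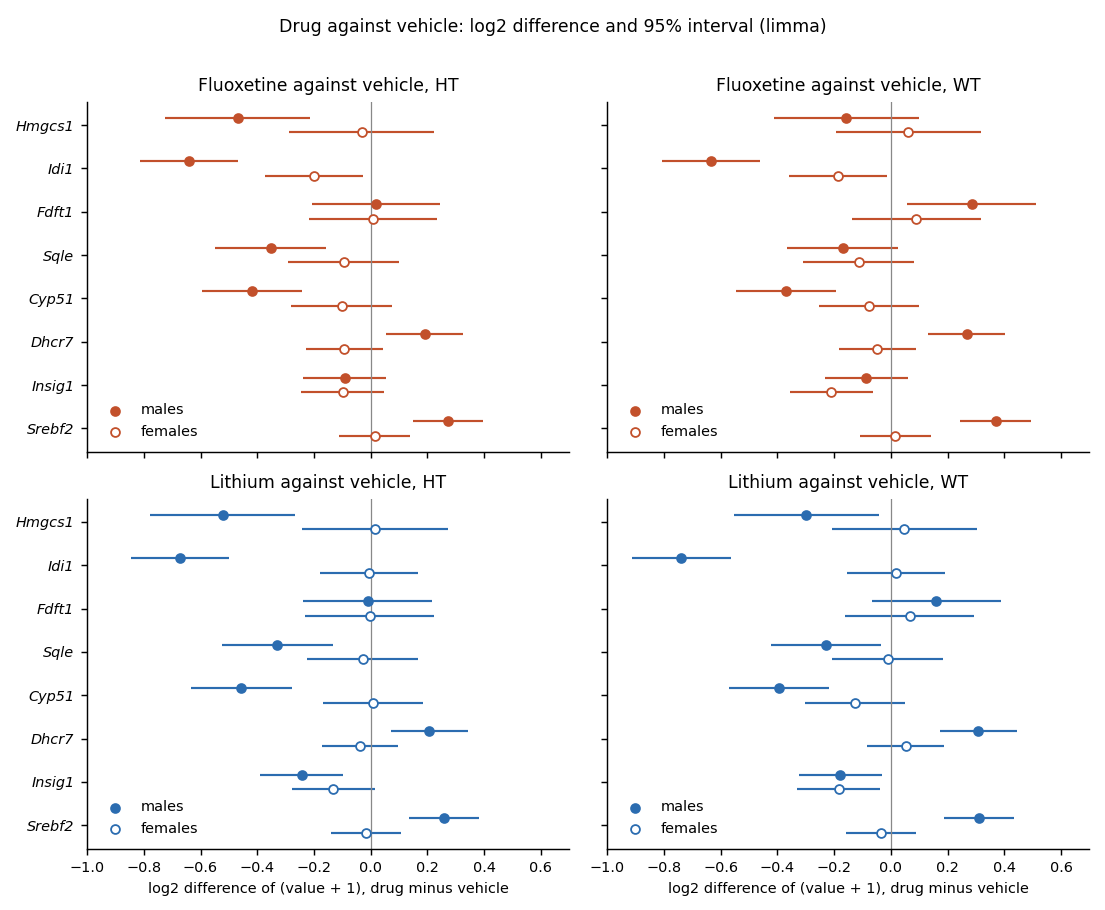
Log2 differences of the 8 sterol genes, fluoxetine and lithium against vehicle, in males and females of each genotype, with 95% confidence intervals. In males Idi1 lies between -0.74 and -0.63 and Srebf2 between 0.26 and 0.37, while in females every point lies between -0.21 and 0.09.

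Averaged over sexes, which joins these male values to the female ones, fluoxetine had 1 gene higher and 4 lower in HT (40.8% of all genes called) and 3 higher and 3 lower in WT mice (63.2%). Lithium had 1 higher and 4 lower in HT (23.2%) and 2 higher and 3 lower in WT mice (42.7%). Idi1 and Cyp51 were lower and Srebf2 higher in all 4 of these comparisons. Idi1 stood at -0.42 and -0.41 for fluoxetine in HT and WT mice, and at -0.34 and -0.36 for lithium. With bulb covariates the count for fluoxetine in WT mice fell to 1 of 8, Idi1 (19.6% of all genes called), and Cyp51 there was -0.22 (adjusted p = 0.0937). Those covariates also ended the Srebf2 calls under fluoxetine, at 0.12 (adjusted p = 0.0714) in HT and 0.16 (0.0795) in WT mice. Bulb levels on fluoxetine and on vehicle do not overlap in WT mice of either sex, so in WT mice that fit cannot tell bulb level and fluoxetine apart. Quantile normalization ended the averaged Srebf2 calls, with 0.08 for fluoxetine and 0.08 for lithium in HT mice and 0.04 and 0.06 in WT mice. Calls of Dhcr7 and Fdft1 under fluoxetine in WT mice were lost without any 1 of 11 and 9 libraries, and those of Hmgcs1 and Srebf2 under lithium in HT mice without any 1 of 8 and 12.

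Male and female differences from vehicle were not the same for some of the genes, Idi1 and Srebf2 among them. The interaction of fluoxetine with sex was called for 3 of 8 genes in HT mice (23.7% of all genes) and 3 in WT mice (26.8%). That of lithium with sex was called for 4 in HT mice (26.4%) and 3 in WT mice (27.8%). With 8 genes in all, these counts exceed the background shares by few genes. Idi1 and Srebf2 passed in all 4, with Idi1 at -0.44 ± 0.12 (SE; adjusted p = 0.00528) and -0.45 ± 0.12 (SE; adjusted p = 0.00396) for fluoxetine in HT and WT mice and -0.67 ± 0.12 (SE; adjusted p = 3.50e-05) and -0.76 ± 0.12 (SE; adjusted p = 4.23e-06) for lithium. Srebf2 stood at 0.26 ± 0.09 (SE; adjusted p = 0.0249) and 0.35 ± 0.09 (SE; adjusted p = 0.00157) for fluoxetine in HT and WT mice, and at 0.28 ± 0.09 (SE; adjusted p = 0.0147) and 0.35 ± 0.09 (SE; adjusted p = 0.00201) for lithium. Dhcr7 passed in 3 of the 4, with 0.28 and 0.32 for fluoxetine in HT and WT mice and 0.26 for lithium in WT mice. Hmgcs1 (-0.54) and Cyp51 (-0.46) passed for lithium in HT mice. With each library's trend on GC content and transcript length removed, 0 of 8 were called in each of these interactions. The shares of all genes called were then 3.92% and 3.28% for fluoxetine and 5.03% and 3.05% for lithium in HT and WT mice.

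The sexes differed under vehicle and not, past the test, under either drug. Under vehicle, males had 3 genes higher and 2 lower than females in HT mice (38.7% of all genes called) and 2 higher and 2 lower in WT mice (40%). Under fluoxetine 0 of 8 differed between males and females in either genotype (0.0562% of all genes in HT, 0.0619% in WT), and under lithium 0 of 8 (0.0562% and 0.0506%). At an unadjusted p below 0.05 these last 4 comparisons held Insig1 for fluoxetine in WT mice (3.75% of all genes) and Idi1 for lithium in HT mice (4.29%). edgeR and DESeq2 were not run on them. Idi1 was 0.49 ± 0.09 (SE; adjusted p = 7.03e-06) in HT and 0.59 ± 0.09 (SE; adjusted p = 1.89e-07) in WT mice, male over female under vehicle. Cyp51 was 0.31 and 0.31, Srebf2 -0.33 and -0.39, and Dhcr7 -0.30 and -0.30 in HT and WT mice, all called. Hmgcs1 was 0.40 ± 0.13 (SE; adjusted p = 0.00902) in HT mice, a call lost without replicate 1 of the vehicle females (0.28, adjusted p = 0.0768), and 0.28 ± 0.13 (SE; adjusted p = 0.0751) in WT mice.

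Idi1 separated the vehicle males from every other library. The 10 vehicle males had 1985 to 2539 (median 2134) normalised reads, against 1078 to 1778 (median 1402) in the other 50, and 7.28% of all genes separated these libraries in this way. Within each genotype Idi1 and Cyp51 were higher, and Dhcr7 and Srebf2 lower, in every vehicle male than in every vehicle female. That is 4 of 8 genes in each genotype, where 22.3% of all genes separated the sexes in HT and 22.8% in WT mice.

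Direction went with the base composition of the transcripts. The 5 sterol genes with a transcript GC content below 50%, Idi1 (41.9%), Hmgcs1 (43.1%), Cyp51 (46.2%), Insig1 (48.2%) and Sqle (49.3%), all had positive male minus female values under vehicle in both genotypes. The 3 above 50%, Fdft1 (51.8%), Dhcr7 (52.8%) and Srebf2 (57.9%), all had negative values. Of the 62 other genes of the lists, 19 of 27 below 50% were higher in vehicle males and 33 of 35 at or above 50% were lower, in HT and again in WT mice, whether called or not. Over all genes tested, the median of the vehicle sex difference was 0.42 in HT and 0.44 in WT mice for transcripts under 40% GC, and -0.33 and -0.37 for those over 60%. Under fluoxetine and under lithium these medians stayed between -0.04 and 0.03.

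**Figure D3:**
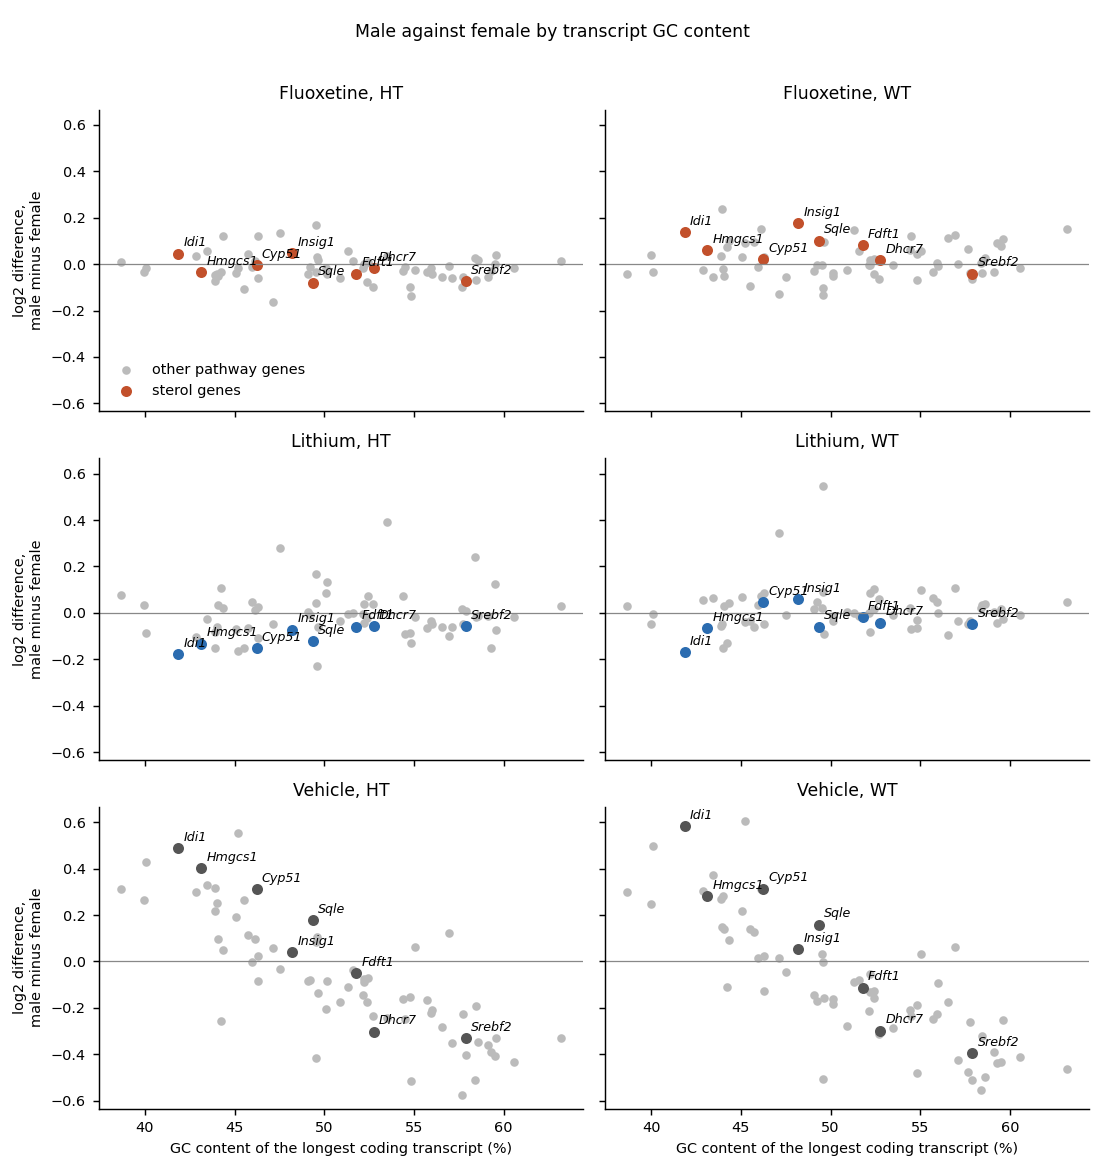
Male minus female log2 difference against transcript GC content (%) under fluoxetine, lithium and vehicle, in HT and WT mice, for the 8 sterol genes and the 62 other genes of the lists, with 1 point per gene. Under vehicle the sterol genes below 50% GC lie above 0 and those above 50% lie below 0.

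Removing each library's trend on GC content and transcript length, an alternative added after the data had been seen, left 0 of 8 genes called between vehicle males and females in either genotype and 0 of 8 in each of the 4 interactions with sex. Between vehicle males and females 10.6% of all genes in HT and 9.84% in WT mice were called after that removal. Idi1 then stood at 0.19 (adjusted p = 0.209) in HT and 0.26 (0.0641) in WT mice for male over female under vehicle. Srebf2 in males dropped to 0.01 and 0.08 for fluoxetine in HT and WT mice, and Dhcr7 to 0.07 and 0.15, all no longer called. For lithium, Dhcr7 was 0.09 in HT males, not called, and 0.20 in WT males (adjusted p = 0.0235). Srebf2 was no longer called for lithium in males of either genotype.

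Idi1 and Cyp51 kept their calls in males after that removal, with smaller differences. Idi1 was -0.35 (adjusted p = 0.00525) for fluoxetine and -0.40 (0.00197) for lithium in HT males, and -0.31 (0.00539) and -0.40 (0.00117) in WT males. Cyp51 was -0.28 and -0.34 for fluoxetine and lithium in HT males, and -0.22 and -0.25 in WT males. Sqle stayed called in HT males, at -0.34 for fluoxetine and -0.32 for lithium. The counts were then 3 of 8 for fluoxetine in HT males (15% of all genes called), 2 in WT males (47.1%), 3 for lithium in HT males (11.4%) and 3 in WT males (24.4%).

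Fluoxetine and lithium, set against each other, gave no sterol gene that passed the test. In HT mice 0 of 8 were called (4.41% of all genes) and in WT mice 0 of 8 (18.8%). At an unadjusted p below 0.05 there were 0 of 8 in both (21.4% of all genes in HT, 35.3% in WT), and edgeR and DESeq2 called 0 in both. Of all genes, edgeR called 908 in HT and 3426 in WT mice, and DESeq2 1172 and 3664. This comparison uses no vehicle library. The differences ranged from -0.08 (Idi1) to 0.09 (Insig1) in HT mice and from -0.07 (Dhcr7) to 0.08 (Hmgcs1) in WT mice. The 95% intervals of the 8 genes lay within -0.20 to 0.20 in HT and -0.17 to 0.26 in WT mice. In females Idi1 was lower under fluoxetine than lithium by -0.19 ± 0.09 (SE; adjusted p = 0.409) in HT and -0.20 ± 0.09 (SE; adjusted p = 0.141) in WT mice, neither called, while in males it was 0.03 and 0.10. With the sexes apart 0 of 8 were called either, in HT females (0.478% of all genes), WT females (3.43%), HT males (0.371%) and WT males (0.917%). At an unadjusted p below 0.05 were Idi1 in HT females (10.7% of all genes) and WT females (25.5%) and Insig1 in HT males (12.3%). In each of these, 1 of 8 is close to or below the share of all genes.

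Tbr1 genotype moved none of the 8 genes past the test. HT against WT, 0 of 8 were called under fluoxetine (0.0112% of all genes), 0 under lithium (0.00562%) and 0 under vehicle (0.0337%), and edgeR and DESeq2 called 0 of 8 each time. Of all genes, edgeR called 3, 1 and 9 and DESeq2 called 8, 2 and 1583 under fluoxetine, lithium and vehicle. The number of genes called under vehicle thus depends on the test. Unadjusted p-values fell below 0.05 for 0 of 8 under fluoxetine (524 genes in all, 2.95%), for Cyp51 under lithium (1489 genes, 8.37%) and for Hmgcs1 and Fdft1 under vehicle (5912 genes, 33.2%), where 2 of 8 is below the share of all genes. The interactions of genotype with fluoxetine and with lithium were called for 0 of 8, and for 0% of all genes. At an unadjusted p below 0.05 there were 0 of 8 (14.8% of all genes for fluoxetine, 4% for lithium). Of the other pathway lists 0 genes were called for HT against WT under any treatment.

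Averaged over sexes, the widest genotype differences were those of Hmgcs1 and Fdft1 under vehicle. Within a sex Cyp51 under lithium differed by 0.24 in females (adjusted p = 0.342). Hmgcs1 had 6387, 8853, 10328, 10459 and 10315 in HT vehicle females and 8026, 7118, 6794, 9594 and 9357 in WT vehicle females. Among vehicle males Hmgcs1 had 12150.3 ± 1577 in HT and 9914 ± 1339.7 in WT mice (mean ± SD, n = 5 each). The groups overlap in both sexes, and HT replicate 1 is the lowest vehicle female at 6387. Averaged over sexes the difference was 0.23 ± 0.09 (SE; adjusted p = 0.0858) for Hmgcs1 and 0.18 ± 0.08 (SE; adjusted p = 0.109) for Fdft1. Without that HT library they were 0.30 (adjusted p = 0.00793) and 0.24 (0.0160), both called, but so were 6275 genes (35.3%), against 6 with it, and 2 of 8 is below that share. Hmgcs1 was also called without HT vehicle male replicate 2 (17% of all genes called), WT vehicle female replicate 4 (17.6%) or WT vehicle male replicate 1 (20.7%), with adjusted p up to 0.0449, and 1 of 8 is below each of these shares. Under fluoxetine the 8 genes differed between HT and WT by 0.00 (Srebf2) to 0.08 (Idi1), and under lithium by -0.02 (Dhcr7) to 0.14 (Cyp51).

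Markers of other tissue spread widely among the vehicle libraries of both genotypes. Summed bulb markers were 364 to 23854 in HT vehicle females and 6287 to 22899 in WT vehicle females, and 2263 to 10949 in HT and 5456 to 23729 in WT vehicle males. Of the 7 bulb markers 0 were called, with a median HT minus WT difference of -1.47. Oligodendrocyte and striatum lists had medians of 0.28 and 0.68 with 0 of 10 and 0 of 8 called. With bulb covariates, or with the oligodendrocyte covariate, no sterol gene was called for HT against WT under vehicle, as without them. No striatum covariate was fitted, so the part of striatum in the Hmgcs1 and Fdft1 values was not tested.

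**Figure D4:**
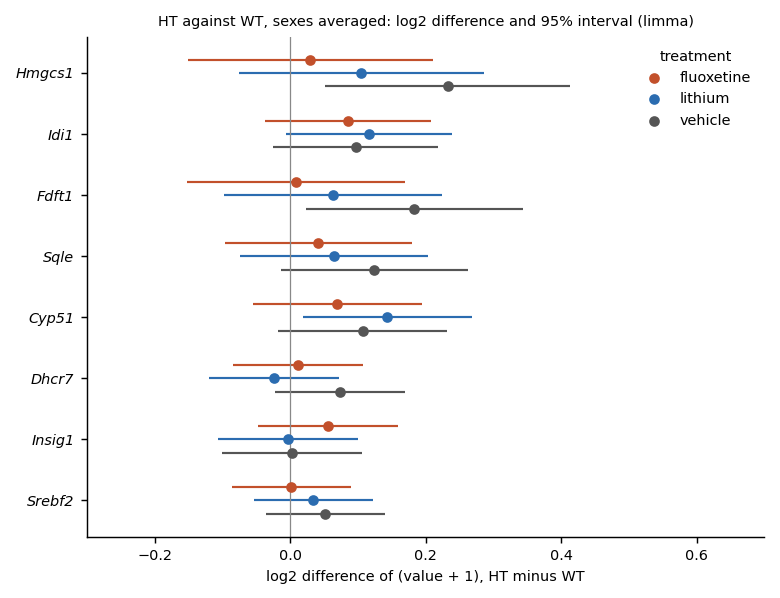
Log2 differences HT minus WT of the 8 sterol genes under fluoxetine, lithium and vehicle, averaged over sexes, with 95% confidence intervals. Hmgcs1 (0.23) and Fdft1 (0.18) under vehicle lie farthest from 0 and none of the values plotted passed the test.

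The other 16 enzymes of cholesterol synthesis were likewise called mostly in males, and in both directions. In females 0 of 16 were called under fluoxetine in HT mice and 0 under lithium in either genotype, and 2 were lower under fluoxetine in WT mice (39.8% of all genes called). Those were Lbr, a sterol reductase that is also a lamin receptor (-0.23), and Pmvk, phosphomevalonate kinase (-0.16). In males on fluoxetine 4 were higher and 6 lower in HT mice and 7 higher and 2 lower in WT mice, and on lithium 3 higher and 5 lower in HT mice and 6 higher and 4 lower in WT mice. The shares of all genes called were 41.4% and 58% for fluoxetine and 36.9% and 48.2% for lithium in HT and WT males, so 9 of 16 for fluoxetine in WT males is no more than the background. With the GC and length trend removed, the counts were 1 higher and 2 lower in HT and 4 higher and 2 lower in WT males on fluoxetine, and 1 higher and 3 lower in each genotype on lithium. The shares of all genes called were then 15% and 47.1% for fluoxetine and 11.4% and 24.4% for lithium in HT and WT males. Ggps1, which makes geranylgeranyl diphosphate, fell in all 4, with -0.44 and -0.44 for fluoxetine and -0.43 and -0.48 for lithium in HT and WT males. After that removal Ggps1 was -0.10 and -0.07 for fluoxetine, not called, and -0.11 and -0.11 for lithium, both called. Msmo1, an oxidase that acts after Cyp51, was -0.58 for fluoxetine and -0.59 for lithium in HT males. Between fluoxetine and lithium 0 of 16 differed in either genotype (4.41% of all genes in HT, 18.8% in WT). Between vehicle males and females 4 were higher and 6 lower in HT (38.7%) and 4 higher and 7 lower in WT mice (40%).

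Among 11 regulators and transport genes, Scap rose and Srebf1 fell with fluoxetine in WT females. Scap, the SREBP escort, was 0.15 in WT females, 0.38 in HT males and 0.50 in WT males on fluoxetine. Scap transcripts have 59.1% GC, and genes of 55% to 60% GC had medians of 0.26 in HT and 0.30 in WT males on fluoxetine. Under vehicle Scap was -0.36 in HT and -0.39 in WT mice, male minus female. Srebf1, whose products drive fatty acid genes, was -0.52 in WT females on fluoxetine. Of the 11, 2 were higher and 5 lower in that comparison (39.8% of all genes called), and 0 were called in the other 3 female comparisons. With bulb covariates 0 were called in WT females on fluoxetine, where that fit cannot tell bulb level and fluoxetine apart. Males had 2 higher and 1 lower in HT (41.4% of all genes called) and 3 higher and 2 lower in WT mice (58%) on fluoxetine. On lithium they had 3 higher and 1 lower in HT (36.9%) and 4 higher and 2 lower in WT mice (48.2%). With the GC and length trend removed, these were 3 higher and 0 lower in each genotype on fluoxetine (15% of all genes called in HT, 47.1% in WT). On lithium they were 1 higher in HT (11.4%) and 2 higher in WT males (24.4%), and 0 lower. For fluoxetine in WT males, 3 of 11 is below the share of all genes. Against lithium in WT mice, fluoxetine had Scap at 0.09, higher, and Srebf1 at -0.35, lower, both called. With bulb covariates neither call remained there, at 0.02 (adjusted p = 0.891) for Scap and -0.16 (0.525) for Srebf1.

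Some fatty acid genes, which SREBP-1 controls, were lower under fluoxetine than under lithium. Of 10 genes 3 were lower and 0 higher in HT mice, and 4 lower and 0 higher in WT mice, against 4.41% and 18.8% of all genes called. Elovl6, a fatty acid elongase, was -0.28 ± 0.07 (SE; adjusted p = 0.014) in HT and -0.33 ± 0.07 (SE; adjusted p = 0.00161) in WT mice. Scd1, a desaturase, was -0.41 and -0.36, and Fads2, the desaturase of polyunsaturated fatty acids, -0.14 and -0.23, in HT and WT mice. Scd2 was also lower in WT mice (-0.14). Elovl6 had 1389, 1362, 1452, 1358 and 1429 in WT females on fluoxetine, 2005, 1938, 1913, 1835 and 1523 on lithium and 1940.4, 2006, 1938, 1728 and 1885 on vehicle. The bulb markers moved with this too, with 7 of 7 lower in WT mice (median -3.25) and 0 of 7 called in HT mice (median -1.69). With bulb covariates 1 of the 10 fatty acid genes was called lower in each genotype. Against vehicle, 5 of 10 were lower in WT females on fluoxetine (39.8% of all genes called), led by Fads2 (-0.37) and Elovl6 (-0.44), and 0 in the other 3 female comparisons. Males had 1 higher and 4 lower in HT (41.4% of all genes called) and 3 higher and 3 lower in WT mice (58%) on fluoxetine. On lithium they had 5 higher and 2 lower in HT (36.9%) and 5 higher and 1 lower in WT mice (48.2%). Fasn, fatty acid synthase, rose in all 4 male comparisons, by 0.33 and 0.43 for fluoxetine and 0.42 and 0.51 for lithium in HT and WT mice. Fasn transcripts have 57.9% GC, and with the GC and length trend removed Fasn was 0.06 and 0.13 for fluoxetine in HT and WT males and 0.15 for lithium in HT males, none of them called, and 0.18 (adjusted p = 0.0322) for lithium in WT males. The list then had 0 higher and 4 lower in HT (15% of all genes called) and 1 higher and 4 lower in WT males (47.1%) on fluoxetine. On lithium it had 1 higher and 0 lower in HT (11.4%) and 3 higher and 1 lower in WT males (24.4%).

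The last lists hold genes of sterol efflux and turnover, some of them induced by oxysterols through LXR, and genes of the lysosome. In WT females on fluoxetine 4 of 10 LXR and efflux genes were higher and 3 lower, where 39.8% of all genes were called. Apoe, the lipoprotein of astrocytes, was -0.43, Abca1, a cholesterol exporter, -0.63, Cyp27a1, a sterol hydroxylase, -1.17, and Mylip, a ligase for the LDL receptor, 0.52. Of 15 lysosomal genes 7 were higher and 3 lower there, with Gpnmb at -1.13, the protease Ctsl at -0.30, the phospholipase Pla2g15 at 0.24 and the protease Ctsd at 0.16. With bulb covariates 0 genes of either list were called in that comparison, where that fit cannot tell bulb level and fluoxetine apart. In HT females on fluoxetine, and in females of either genotype on lithium, 0 were called without those covariates. Against lithium, fluoxetine had 0 of 10 LXR genes called in HT mice and 3 lower in WT mice, and 1 and 3 of 15 lysosomal genes lower in HT and WT mice, where 4.41% and 18.8% of all genes were called. With bulb covariates 0 genes of either list were called between the drugs in either genotype. In males on fluoxetine 4 of 10 LXR genes were higher and 1 lower in HT and 5 higher and 3 lower in WT mice, and on lithium 6 higher and 0 lower in HT and 6 higher and 1 lower in WT mice. Lysosomal genes numbered 6 higher and 4 lower in HT and 7 higher and 6 lower in WT males on fluoxetine, and 6 higher and 3 lower in HT and 7 higher and 2 lower in WT males on lithium. These stand beside 41.4% and 58% of all genes called for fluoxetine and 36.9% and 48.2% for lithium in HT and WT males. With the GC and length trend removed, LXR genes numbered 1 higher and 0 lower in HT and 3 higher and 3 lower in WT males on fluoxetine, and 1 higher and 0 lower in HT and 2 higher and 0 lower in WT males on lithium. Lysosomal genes then numbered 1 higher and 1 lower in HT and 5 higher and 2 lower in WT males on fluoxetine, and 2 higher and 1 lower in HT and 4 higher and 0 lower in WT males on lithium. After that removal the shares of all genes called were 15% and 47.1% for fluoxetine and 11.4% and 24.4% for lithium in HT and WT males. Ctsd was 0.29 and 0.39 for fluoxetine and 0.26 and 0.36 for lithium in HT and WT mice, and after that removal it was 0.07 and 0.06, not called, for fluoxetine and lithium in HT males and 0.16 and 0.16, both called, in WT males.

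The 8 genes varied together within groups. Around the 12 group means, Pearson correlations between pairs over 60 libraries lay between 0.51 and 0.90, with Hmgcs1 and Fdft1 highest at 0.90. These are descriptions over libraries that share a depth and a dissection. Without removing the group means Idi1 and Srebf2 correlated at -0.51 and Dhcr7 and Srebf2 at 0.88. Around the group means the 8 genes correlated with the mean of the oligodendrocyte list at 0.46 to 0.71 (0.39 to 0.68 without the 2 libraries farthest from the median). In the same way they correlated with the neuron list at 0.23 to 0.73 (0.35 to 0.73) and with the cortical projection neuron list at 0.24 to 0.76 (0.22 to 0.77). For the striatum list the range was 0.53 to 0.67, and it fell to 0.36 to 0.55 without the 2 farthest libraries. With the astrocyte list the 8 genes correlated at -0.76 to -0.28 (-0.74 to -0.27 without the 2 farthest libraries) and with the bulb list at -0.51 to 0.01 (-0.57 to -0.18). The summed oligodendrocyte level spread from 37511 to 144288 in HT males on lithium, against 83906 to 215250 in HT males on vehicle, with 3 of 10 markers called lower there. For fluoxetine in HT males 1 of 10 was lower, and for either drug in WT males 2 (fluoxetine) and 0 (lithium) of 10 were higher.

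Outside these lists, the 5 genes most like the mean of the 8, by correlation around group means over 60 libraries among genes with a mean of at least 50, were Far2 (0.885), Tubb5 (0.869), Gfra1 (0.861), Tuba1b (0.860) and Zdhhc9 (0.853). Far2 encodes a fatty acyl-CoA reductase, Tubb5 and Tuba1b encode tubulins, Gfra1 a receptor for a neurotrophic factor and Zdhhc9 a palmitoyltransferase.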

How the data were processed

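Poly(A) RNA was turned into strand-marked libraries with an Illumina kit, as the labels' protocols state. The deposited table gives 1 signal per gene and library: reads divided by a size factor of that library. The submitters' processing notes name, without roles, DESeq2 1.19.11, Salmon 0.11.2 and R 3.6.0, and GRCm38 as build. All 18088 rows could be turned back into whole reads in 100% of values within a tolerance of 1e-06 (in 6 libraries 1 read is worth within 0.01 of 1, where steps are hard to tell from rounding), giving 23930164 to 36515331 reads per library. Of 18088 identifiers 18077 matched a symbol.

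Since the deposited signal is normalised, log2(value + 1) was tested with limma 3.58.1 (R 4.3.3), fitting each of the 12 groups its own mean over all 60 libraries and letting the prior variance follow the mean. Fold changes on this scale understate those of low genes. A gene was tested if 5 or more libraries reached a value of 10. The test is two-sided, with Benjamini-Hochberg adjustment over 17781 genes for each comparison, and it was tested on simulated data. Alternatives were pseudocounts of 0.5 and 5, no filter, a filter at a mean of 100, a replicate block, quantile normalization, only the compared groups, olfactory bulb covariates, an oligodendrocyte covariate, edgeR 4.0.16 and DESeq2 1.42.0 on recovered reads, and leaving out each library. Chosen after seeing the data were a fit without vehicle males, removal of each library's trend on GC content and transcript length, and the alternatives for male contrasts and interactions with sex.

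The 8 genes and all gene lists were chosen with earlier results of these data known. Named were the 8 genes, up to 4 called genes of each other list with the smallest p in a comparison, and the 5 genes most correlated with the 8. A few genes of the other lists are in the counts but are not reported here by name. Replicate numbers did not pair the samples. The lowest chi-square per degree of freedom among 120 pairs of libraries of a group was 3.11, so none was taken as a duplicate.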

Additional observations from a re-analysis of the deposited data

Results flagged for a closer look

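In 96 groups of 5 values (8 genes in 12 groups), 5 had a library whose gap to the next was above Dixon's critical value of 0.71 of the group's range, and chance flags about 1 group in 20. Hmgcs1 was at 9413 in replicate 5 of the HT fluoxetine females, with the next at 8855, and at 7398 in replicate 3 of the WT fluoxetine males, with the next at 8925. That WT male was also the lowest of its group for Sqle, at 1586 with the next at 1762. Srebf2 was at 7866 in replicate 3 of the HT fluoxetine females, with the next at 7364, and at 6529.6 in replicate 1 of the HT fluoxetine males, with the next at 7107.

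The difference between drug and vehicle was not the same in males and females for several genes, by limma's interaction term with Benjamini-Hochberg adjustment. For fluoxetine these were Idi1 (-0.44, adjusted p = 0.00528), Dhcr7 (0.28, 0.0236) and Srebf2 (0.26, 0.0249) in HT mice. In WT mice they were Idi1 (-0.45, 0.00396), Dhcr7 (0.32, 0.00976) and Srebf2 (0.35, 0.00157). For lithium in HT mice they were Hmgcs1 (-0.54, 0.0213), Idi1 (-0.67, 3.50e-05), Cyp51 (-0.46, 0.00366) and Srebf2 (0.28, 0.0147). In WT mice they were Idi1 (-0.76, 4.23e-06), Dhcr7 (0.26, 0.0385) and Srebf2 (0.35, 0.00201). All of these terms use the vehicle males, which stand apart from the other libraries, so sex and the shift of those libraries cannot be told apart. With each library's trend on GC content and transcript length removed, 0 of these genes passed. Dhcr7 for lithium in WT mice was also lost without any 1 of 12 libraries, Dhcr7 for fluoxetine and Hmgcs1 for lithium in HT mice without any 1 of 3 each, and Srebf2 in HT mice without any 1 of 2 for fluoxetine and 1 for lithium.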

How the results depend on the processing

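Counts of the 8 genes called are within 1.5 times of those reported under both pseudocounts and both filters. The fit without vehicle males covers only the 8 comparisons that use none of them, and counts there also stayed within 1.5 times. Counts of comparisons that use vehicle males could not be tested by that fit. Fluoxetine in WT females, 1 as reported, gave 3 with quantile normalization (39.1% of all genes called) and 2 with only the compared groups (41.9%). It gave 0 with bulb covariates (0%) and 3 with the oligodendrocyte covariate (40.8%). Only the compared groups gave, in HT mice, 3 for lithium averaged (15.3% of all genes called), 6 for fluoxetine by sex (23.7%) and 2 for lithium by sex (19.1%). Bulb covariates gave 1 for fluoxetine averaged in WT mice (19.6%), and edgeR and DESeq2 gave 4 each for lithium in WT males (48.3% and 48.4%). The GC and length removal gave 3 and 2 for fluoxetine averaged in HT and WT mice (23.3% and 60% of all genes called) and 1 for lithium averaged in HT mice (5.39%). The 2 in WT mice are below the share of all genes. In HT and WT males it gave 3 and 2 for fluoxetine (15% and 47.1%) and 3 and 3 for lithium (11.4% and 24.4%). It gave 0 for the 4 drug by sex interactions (3.05% to 5.03%) and for male against female under vehicle in both genotypes (10.6% in HT, 9.84% in WT). Srebf2 changed sign with quantile normalization for fluoxetine in WT females (-0.15) and with the GC and length removal for lithium averaged in HT (-0.0039) and WT mice (-0.0034) and in HT males (-0.0038). The cause was not tested. Leaving out each library gave, for fluoxetine and vehicle in HT and WT mice, 5 to 5 and 4 to 6 averaged, 0 to 0 and 0 to 2 in females and 5 to 6 and 4 to 5 in males, and for lithium 3 to 5 and 5 to 6 averaged, 0 to 0 and 0 to 0 in females and 6 to 7 and 4 to 7 in males. It gave 0 to 0 for fluoxetine against lithium, for genotype under either drug and for both genotype interactions, 0 to 2 for genotype under vehicle, 2 to 5 and 3 to 4 for fluoxetine by sex, 3 to 5 and 2 to 3 for lithium by sex, and 4 to 5 for the sexes under vehicle in each genotype. With the replicate block every count stayed within 1.5 times, with 6 of 8 for lithium in WT males, where Hmgcs1 (-0.30, adjusted p = 0.052) was lost. Libraries with the same number correlated at a mean of 0.006 around group means and others at -0.001, so the numbers were not taken as a pairing. With 5 libraries a group, the 95% intervals of the 8 genes reached a half-width of 0.26 within a sex and 0.18 averaged over sexes, on the log2 scale, which limits what could be shown.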
